A study of Mus musculus with 12 samples.

Results

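Genes that receive or transmit the Hedgehog (Hh) signal were examined, namely the co-receptors Gas1, Cdon and Boc, the receptor Ptch1, the ligand-binding antagonist Hhip, the signal transducer Smo and the transcription factors Gli1, Gli2 and Gli3. They were picked by gene symbol, and they make up 9 of the 51490 genes in the table of gene-level counts. RNA-seq was done on immortalized mouse embryonic palatal mesenchyme (iMEPM) cells, a line from a male Cdkn2a-/- embryo, so every group lacks Cdkn2a. The cells carried a lentiviral scramble shRNA (scramble) or an shRNA against the 3' UTR of Srsf3 (shSrsf3), a splicing factor of the SR protein family. Each line was serum starved, then left unstimulated (-PDGF-AA) or given 10 ng/mL PDGF-AA, a ligand of the receptor PDGFRα, for 1 hr (+PDGF-AA). The 4 groups of 3 biological replicates were therefore scramble -PDGF-AA, shSrsf3 -PDGF-AA, scramble +PDGF-AA and shSrsf3 +PDGF-AA. No Hh ligand or Hh pathway drug is named among the treatments. Each shRNA was represented by 1 stable line, selected with puromycin, sorted for GFP and passaged, so the shRNA cannot be told apart from other differences between the lines.

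In the Hh pathway, Ptch1 holds Smo inactive until a secreted ligand (Shh, Ihh or Dhh) binds Ptch1. Gas1, Cdon and Boc bind the ligand and help to present it to Ptch1, whereas Hhip binds the ligand and keeps it away from the receptor. Active Smo moves into the primary cilium and changes the processing of Gli2 and Gli3, which act as activators or repressors of transcription. Ptch1, Hhip and Gli1 are themselves classic target genes of Gli factors, while transcription of Gas1, Cdon and Boc is lowered by Hh signaling in many embryonic tissues. In the developing palate, Shh comes from the epithelium, and the mesenchyme is the responding tissue.

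In shSrsf3 cells all 3 co-receptors were lower than in scramble cells, by 34.1% to 48.5%, while Ptch1 was 1.31-fold to 1.403-fold higher and Hhip was 2.29-fold to 3.34-fold higher. Gli2 and Gli3 differed by less than 0.10 on the log2 scale. PDGF-AA for 1 hr gave no call in any of the 9 genes. Of all genes, only 4.04% were called in scramble and 0.565% in shSrsf3 cells.

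The depth was 30958870 to 76123207 counts per library, and all 9 genes were among the 15037 genes that passed the filter on low counts. Levels are given as CPM (counts scaled to the library total), scaled between libraries by TMM factors. A gene was called changed at an adjusted p of 0.05 or less by edgeR's quasi-likelihood test with Benjamini-Hochberg adjustment over all 15037 genes, and differentially expressed (DE) where the fold change was also at least 2. Replicates of a group correlated with r = 0.9862 to 0.9941 across genes. Srsf3 RNA was lower in shSrsf3 cells, at 162 against 206 CPM without ligand and 165 against 222 CPM with it. The study measured the knockdown as protein, where its western blot gave a larger decrease than these RNA values. The early gene Egr1 rose with PDGF-AA from 29.3 to 79.4 CPM in scramble cells and from 53.4 to 112 CPM in shSrsf3 cells, whereas Fos was at 11.3 and 11.0 CPM in scramble cells and fell from 14.3 to 9.48 CPM in shSrsf3 cells.

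Of 15 palatal mesenchyme markers, 12 or 13 had a mean of at least 1 CPM in each group, but Tbx22 had 0 counts in all 12 libraries and Meox2 had at most 12 counts in any library. The summed level of the 15 markers was 40550.5 to 42325.8 CPM in scramble cells and 35944.9 to 38820.5 CPM in shSrsf3 cells. Col1a1 (18235 and 17214 CPM without ligand, not called) and Col1a2 (12477 and 9657 CPM, called lower) made up most of this sum. Of 13 tested markers, 2 were called higher and 7 lower without ligand, beside 22.2% and 23.7% of all genes. With ligand 2 were higher and 5 lower, beside 20.3% and 20.7%. Twist2 (log2 fold changes 0.55 without and 0.58 with ligand) and Vim (0.25 and 0.24) were higher. Msx1 (-0.93 and -1.10) was lower, at a low level (1.70 to 0.897 CPM without and 1.55 to 0.719 CPM with ligand). Osr2 (-0.82), Pdgfra (-0.53), Prrx2 (-0.36), Prrx1 (-0.25) and Osr1 (-0.23) were also called lower without ligand. Summed markers of epithelium were at 4.78 to 6.15 CPM in scramble and 2.89 to 4.15 CPM in shSrsf3 cells. Among them Cdh1 was lower in shSrsf3 cells (2.36 to 0.484 CPM without and 2.17 to 0.563 CPM with ligand). Trp63 was at 2.90 and 2.72 CPM without ligand and was not called there. Those of endothelium were at 30.5 to 34.6 and 19.1 to 22.6 CPM, most of it from Tek, with Pecam1 below 0.70 CPM throughout. Tek was lower in shSrsf3 cells (log2 fold changes -0.61 and -0.84), but Cdh5 was higher (0.274 to 1.37 CPM without and 0.206 to 1.48 CPM with ligand), as was Kdr (0.251 to 0.623 and 0.336 to 0.635 CPM). Those of neurons and glia were at 28.3 to 31.5 and 20.1 to 24.7 CPM, mostly from Tubb3. Those of blood and muscle did not exceed 1.68 CPM, with Myod1 at 0 counts. Des, the 1 muscle marker tested, was called higher in shSrsf3 cells in both states (log2 fold changes 1.21 and 1.34). Its level was low, at 0.148 to 0.348 CPM without and 0.173 to 0.443 CPM with ligand. At least 1 CPM on average was reached in each group by 1 or 2 of 6 epithelial, 1 or 2 of 4 endothelial, 2 of 4 neural, 1 of 4 blood and 0 of 4 muscle markers. Over both ligand states, the sums of mesenchymal, epithelial, endothelial and neural markers did not overlap between the lines, whereas those of blood and of muscle did. The part of these sums in the differences below was not tested. In bulk RNA, fewer cells of a type and less RNA per cell cannot be told apart.

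The DNA before transcript starts of the 9 genes was searched for GACCACCCA, the consensus letters of a Gli binding motif, on both strands. The windows were the 1000 bases before every annotated start of a protein-coding transcript (GRCm39), starts inside a gene included. The motif was found for 314 of 21581 protein-coding genes, or 1.455%, and for 1 of the 9 genes, Ptch1. In the shorter RefSeq promoter windows of 300 bases around 1 start per gene (GRCm38.p6), which held 7 of the 9 genes, Ptch1 included, it was found in 0 of 7 and in 0.2527% of all. The 60 bases around it, at chr13:63714224-63714283 and read on the minus strand, from which Ptch1 is transcribed, are shown because Ptch1 is a classic Gli target and was called higher in shSrsf3 cells. Capitals mark the motif, which lies 157 bases before the nearest annotated start, on the opposite strand, and overlaps no annotated exon. That start is an internal one. The motif lies within the annotated span of Ptch1 (63656142 to 63721412), not before the outermost start of the gene.
Ptch1 upstream: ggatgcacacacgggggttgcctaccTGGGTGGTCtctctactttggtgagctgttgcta
A match to these letters describes the sequence and does not show a bound site, and no match says only that the letters are not in the window. Hhip, which was also called higher, had no match in its 1000-base windows.

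Per kilobase of merged exon sequence, Gas1 and Smo had the most RNA in unstimulated scramble cells, at 27.2 ± 0.985 and 21.9 ± 1.15 CPM per kb (SD, n = 3). Boc at 12.5 and Cdon at 11.0 followed, then Gli3 at 6.83, Gli2 at 4.31 and Ptch1 at 0.988 CPM per kb. Hhip at 0.0646 and Gli1 at 0.0440 CPM per kb came last, and only this pair of neighbours overlapped in their sample ranges. With PDGF-AA the order in scramble cells was the same, and the ranges of Boc and Cdon overlapped as well.

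The order by length differed in shSrsf3 cells. Smo, at 20.1 CPM per kb without ligand and 19.5 with it, was above Gas1, at 16.9 and 15.7, with no overlap of samples. Boc, Cdon and Gli3, which were separated in unstimulated scramble cells, lay at 7.204, 6.82 and 6.55 CPM per kb without ligand and at 6.35, 6.66 and 6.82 with it. Neighbours among these 3 genes overlapped in both states, so their order there is not beyond the spread. Hhip, at 0.148 and 0.207 CPM per kb, no longer overlapped Gli1, at 0.0701 and 0.0856. With the longest transcript as the length instead, Smo was first and Cdon was above Boc in all 4 groups.

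**Figure D1:**
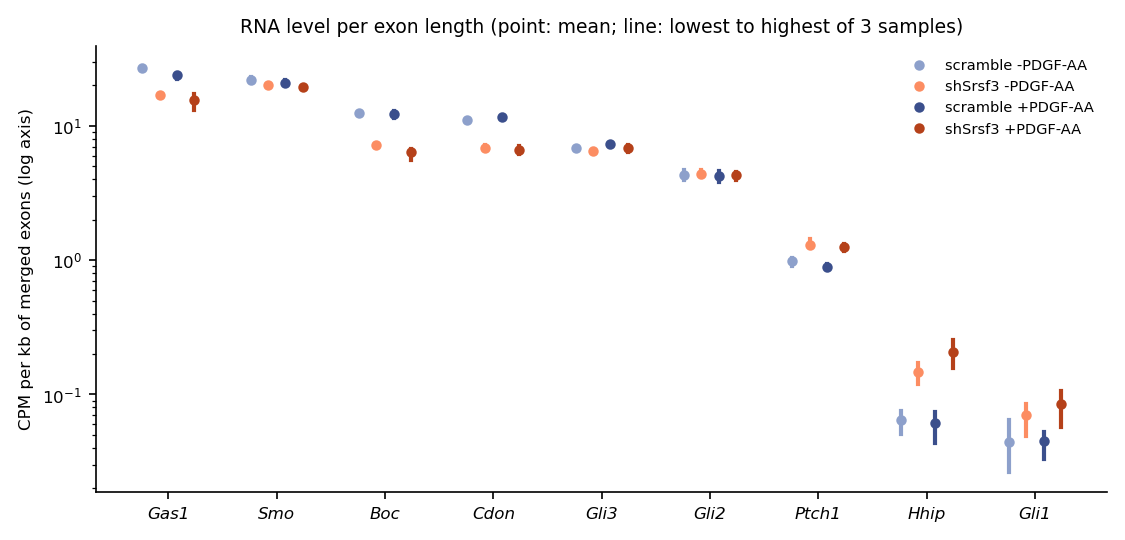
CPM per kb of merged exons on a log axis for the 9 genes, ordered by their level in unstimulated scramble cells; points are means of 3 samples and lines run from the lowest to the highest sample. Gas1 drops below Smo in shSrsf3 cells, Boc and Cdon drop to the level of Gli3, and Gli1 is lowest in every group.

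The comparison of shSrsf3 with scramble gives the difference in RNA levels between the line with the Srsf3 shRNA and the control line in each ligand state. Without PDGF-AA, 6 of the 9 genes changed, against 45.9% of all genes tested. Of these 2 were higher (22.2% of all genes) and 4 were lower (23.7%). With PDGF-AA, 5 changed, against 41.0% of all genes, with 2 higher (20.3%) and 3 lower (20.7%). Only Hhip was DE in either state, where 5.75% and 5.42% of all genes were. The median log2 fold change of the 9 genes was -0.06 without and -0.09 with ligand, beside medians of -0.02 and -0.01 over all genes. The share of the 9 genes that changed was thus above the background by 1 or 2 genes.

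Boc, a cell-surface co-receptor of the immunoglobulin superfamily encoded on chromosome 16 (44305290 to 44379432, minus strand, GRCm39), had the largest decrease. Its levels were 61.9, 59.7 and 60.3 CPM in unstimulated scramble cells and 35.8, 33.6 and 35.7 CPM in unstimulated shSrsf3 cells. With PDGF-AA they were 61.7, 62.9 and 55.4 CPM in scramble and 32.4, 32.9 and 27.3 CPM in shSrsf3 cells. No scramble sample was as low as any shSrsf3 sample. Boc fell by 42.2% without ligand (log2 fold change -0.79, SE 0.0648, adjusted p = 4.075e-07) and by 48.5% with it (log2 fold change -0.96, SE 0.0662, adjusted p = 9.068e-08).

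Cdon, the relative of Boc, lies on chromosome 9 (35332424 to 35418948, plus strand). It was measured at 103, 101 and 102 CPM in unstimulated scramble cells and at 61.2, 62.3 and 66.8 CPM in unstimulated shSrsf3 cells. With PDGF-AA the values were 104, 109 and 112 CPM in scramble and 65.6, 62.0 and 57.8 CPM in shSrsf3 cells. The groups were far apart in both states. Cdon fell by 37.8% without ligand (log2 fold change -0.69, SE 0.0497, adjusted p = 1.271e-07) and by 42.9% with it (log2 fold change -0.81, SE 0.0501, adjusted p = 3.196e-08). Of its 31-base sequences, 1.42% also occur in transcripts of other genes.

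Gas1, a co-receptor anchored to the membrane by a lipid and encoded by a gene on chromosome 13 (60322219 to 60325179, minus strand), was measured at 81.2, 77.2 and 82.9 CPM in unstimulated scramble cells and at 51.0, 49.1 and 50.0 CPM in unstimulated shSrsf3 cells. With ligand it was at 71.1, 73.9 and 66.3 CPM in scramble cells and at 50.8, 49.6 and 38.7 CPM in shSrsf3 cells, with replicate 3 lowest in both groups. The shSrsf3 samples were below all scramble samples in both states. Gas1 fell by 37.8% without ligand (log2 fold change -0.68, SE 0.0786, adjusted p = 1.059e-05) and by 34.1% with it (log2 fold change -0.60, SE 0.0796, adjusted p = 4.104e-05).

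The summed level of the 3 co-receptors per kb was 49.2 to 51.3 CPM per kb in unstimulated scramble and 30.2 to 31.4 in unstimulated shSrsf3 samples. With ligand it was 45.8 to 49.6 in scramble and 24.9 to 30.9 in shSrsf3 samples. Divided by Ptch1 per kb, this sum was 48.4 to 56.7 in unstimulated scramble and 21.8 to 25.4 in unstimulated shSrsf3 samples, and 48.8 to 58.7 and 21.2 to 24.2 with ligand. Co-receptor RNA thus stood well above Ptch1 RNA in each sample, by a smaller factor in shSrsf3 cells. These sums restate the genes' own values and were not tested.

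Ptch1, the receptor and itself a target of the pathway, lies on chromosome 13 (63656142 to 63721412, minus strand). Its levels were 13.3, 14.99 and 15.3 CPM in unstimulated scramble cells and 18.04, 18.1 and 21.3 CPM in unstimulated shSrsf3 cells. With PDGF-AA they were 13.1, 12.4 and 13.8 CPM in scramble and 19.5, 18.4 and 17.3 CPM in shSrsf3 cells. Every shSrsf3 sample was above every scramble sample. Ptch1 was 1.31-fold higher without ligand (log2 fold change 0.38, SE 0.0754, adjusted p = 9.867e-04) and 1.403-fold higher with it (log2 fold change 0.49, SE 0.0771, adjusted p = 1.904e-04). Of its 31-base sequences, 0.671% are shared with other genes.

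Hhip, the secreted and membrane-bound antagonist that is also a pathway target, lies on chromosome 8 (80692480 to 80784658, minus strand) and was expressed at a low level. It had 28, 35 and 33 counts in unstimulated scramble and 100, 107 and 69 counts in unstimulated shSrsf3 libraries, which is 0.727, 0.805 and 0.547 CPM against 1.29, 1.62 and 1.85 CPM. With PDGF-AA it had 28, 41 and 51 counts in scramble and 63, 88 and 70 counts in shSrsf3 libraries, or 0.465, 0.727 and 0.788 CPM against 1.68, 2.73 and 2.25 CPM. The groups did not overlap in CPM in either state. Hhip was 2.29-fold higher without ligand (log2 fold change 1.198, SE 0.256, adjusted p = 0.0018) and 3.34-fold higher with it (log2 fold change 1.74, SE 0.252, adjusted p = 9.082e-05).

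Over the 12 samples, the genes whose log2 CPM was most like that of Hhip among 12261 genes with a mean count of at least 50 were Zmynd8 (Pearson r = 0.967), Fgf7 (r = 0.965) and Fuca2 (r = 0.964). The 12 points share their 2 shRNA lines, so these values describe the pattern only. The differences of these 3 genes between the lines were smaller than those of Hhip, with log2 fold changes of 0.22, 0.24 and 0.50 without ligand and 0.27, 0.34 and 0.63 with it.

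Smo, the transducer, lies on chromosome 6 (29735407 to 29762532, plus strand). It was at 203, 196 and 183 CPM in unstimulated scramble and 176, 176 and 180 CPM in unstimulated shSrsf3 cells. With PDGF-AA it was at 186, 192 and 177 CPM in scramble and 174, 174 and 169 CPM in shSrsf3 cells. The groups did not overlap, but the gap between them was a few CPM in each state. Smo fell by 8.63% without ligand (log2 fold change -0.13, SE 0.0427, adjusted p = 0.0234), and with ligand its log2 fold change of -0.11 (SE 0.0428, 95% interval -0.20 to -0.01) had an adjusted p of 0.0640. Without the 3 scramble libraries of lower mapping rate, replicates 1 and 2 of scramble -PDGF-AA and replicate 2 of scramble +PDGF-AA, the value in the unstimulated state was -0.05 (adjusted p = 0.402). The call in that state was also lost without replicate 1 or 2 of either unstimulated group (adjusted p = 0.0661 to 0.106). A processed pseudogene, Gm13717, overlaps Smo on the same strand, and 5.71% of the 31-base sequences of Smo are shared with other genes.

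**Figure D2:**
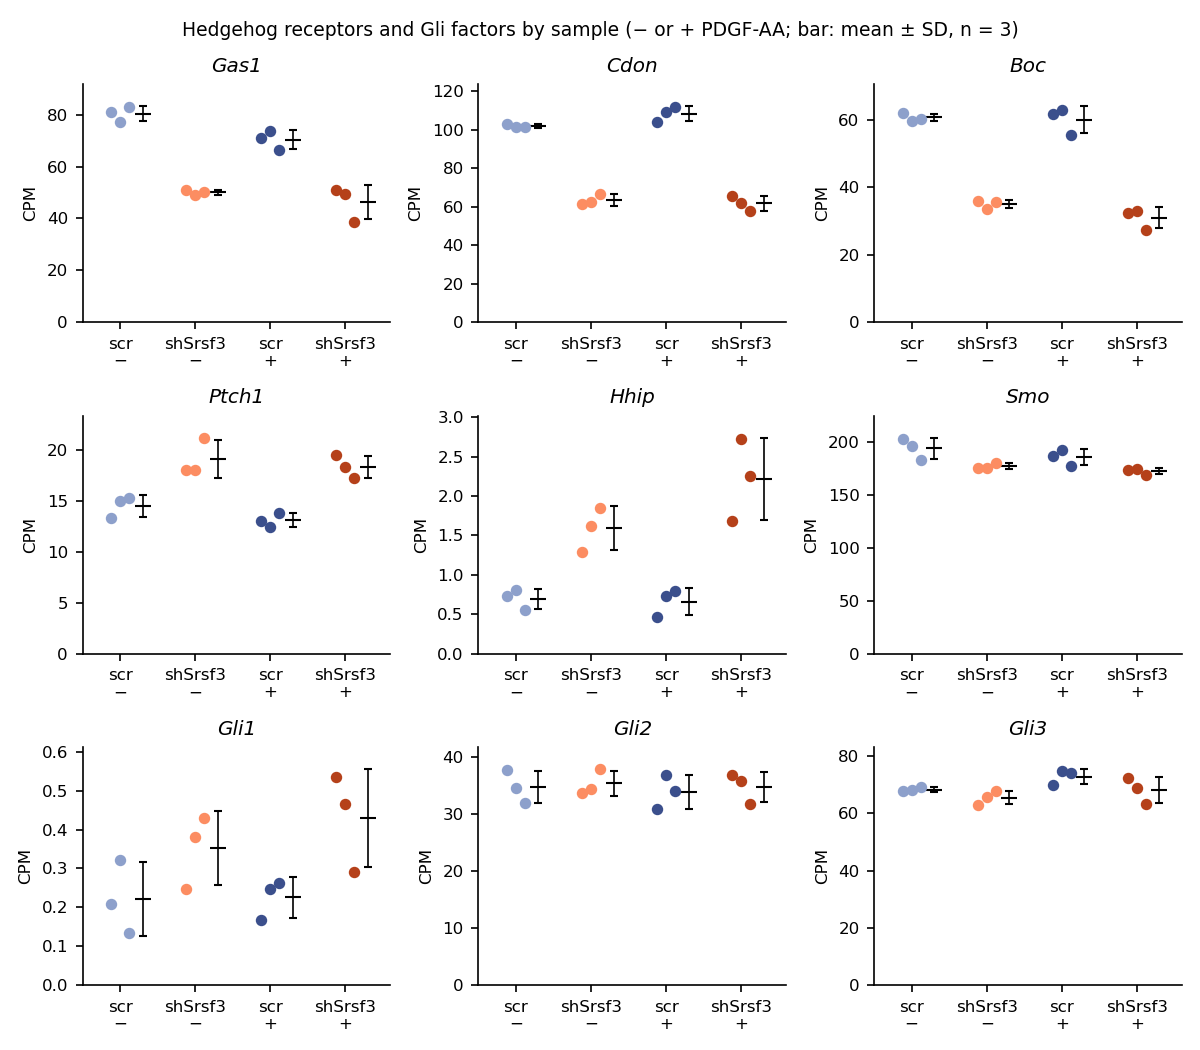
CPM of each of the 9 genes in each of the 12 samples, with a separate linear axis from 0 per gene; dots are samples and the black bar beside them is the mean ± SD of 3. The co-receptors Gas1, Cdon and Boc are lower and Ptch1 and Hhip are higher in every shSrsf3 sample than in every scramble sample of the same ligand state, whereas Gli2 and Gli3 overlap between the lines.

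Gli1, the activator whose own transcription depends on pathway activity, lies on chromosome 10 (127165751 to 127177865, minus strand) and was near the limit of detection, at 8 to 25 counts per library. It had 8, 14 and 8 counts in unstimulated scramble and 19, 25 and 16 counts in unstimulated shSrsf3 libraries, which is 0.208, 0.322 and 0.133 CPM against 0.246, 0.380 and 0.430 CPM. With ligand it had 10, 14 and 17 counts in scramble and 20, 15 and 9 counts in shSrsf3 libraries, or 0.166, 0.248 and 0.263 CPM against 0.534, 0.465 and 0.290 CPM. The groups overlapped without ligand and did not with it. The log2 fold change was 0.67 without ligand (95% interval -0.16 to 1.49, adjusted p = 0.175) and 0.93 with it (95% interval 0.12 to 1.75, adjusted p = 0.0648). Gli1 was therefore not called at this depth, although it passed with ligand without shSrsf3 +PDGF-AA replicate 3 (1.14, adjusted p = 0.046), and its intervals include increases as large as that of Hhip.

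Gli2, the main activator of the pathway, lies on chromosome 1 (118761858 to 118982598, minus strand). It was at 37.7, 34.6 and 32.04 CPM in unstimulated scramble and 33.8, 34.5 and 37.9 CPM in unstimulated shSrsf3 cells. With ligand it was at 30.9, 36.9 and 34.0 CPM in scramble and 36.8, 35.7 and 31.9 CPM in shSrsf3 cells. The groups overlapped fully. The log2 fold change was 0.02 without ligand (95% interval -0.14 to 0.19, adjusted p = 0.818) and 0.04 with it (95% interval -0.13 to 0.20, adjusted p = 0.738).

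Gli3, the main repressor, lies on chromosome 13 (15637809 to 15904611, plus strand). It was at 67.7, 68.1 and 69.2 CPM in unstimulated scramble and 63.0, 65.9 and 67.8 CPM in unstimulated shSrsf3 cells. With ligand it was at 69.8, 74.7 and 74.0 CPM in scramble and 72.5, 68.9 and 63.4 CPM in shSrsf3 cells. The lines overlapped in both states. The log2 fold change was -0.06 without ligand (95% interval -0.17 to 0.05, adjusted p = 0.347) and -0.09 with it (95% interval -0.20 to 0.01, adjusted p = 0.159). The intervals of Gli2 and Gli3 exclude changes of the size seen for the co-receptors. The ratio of Gli3 to Gli2 per kb was 1.45 to 1.74 in unstimulated scramble and 1.44 to 1.54 in unstimulated shSrsf3 samples, and 1.63 to 1.82 and 1.55 to 1.60 with ligand.

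By sample, the 2 lines did not overlap for 6 of the 9 genes without ligand, where 53.3% of all genes did not overlap, and for 7 of 9 with it, where 52.6% did not. The additional gene with ligand was Gli1.

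The response to PDGF-AA was read within each line. In scramble cells 0 of the 9 genes changed, against 4.04% of all genes, and in shSrsf3 cells 0 changed, against 0.565%. With shares this low over all genes, 0 of 9 does not set these genes apart from other genes. DESeq2 and limma-voom also gave 0 in both lines, and 1 gene in each line had an unadjusted p under 0.05. These were Gas1 in scramble cells (80.4 ± 2.92 to 70.4 ± 3.81 CPM, log2 fold change -0.19, adjusted p = 0.214, and 0.0445 when shSrsf3 +PDGF-AA replicate 3 was left out of the fit) and Boc in shSrsf3 cells (35.1 ± 1.22 to 30.9 ± 3.09 CPM, log2 fold change -0.18, adjusted p = 0.363). In scramble cells the log2 fold changes of the 9 genes were between -0.19 and 0.09. In shSrsf3 cells they were between -0.18 and 0.49, the highest being Hhip (95% interval -0.02 to 1.00, adjusted p = 0.549). The -PDGF-AA and +PDGF-AA samples did not overlap for Gas1, Cdon and Gli3 in scramble cells, where 18.8% of all genes did not overlap, and for Smo and Boc in shSrsf3 cells, where 18% did not. The early gene Egr1 rose in both lines in the same libraries.

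Whether the shRNA difference depended on the ligand was tested by the interaction of shRNA and PDGF-AA, which called 0 of the 9 genes and 0.0133% of all genes. None of the 9 had an unadjusted p under 0.05, and DESeq2 and limma-voom called 0 as well. The largest estimates were those of Hhip (0.54 on the log2 scale, 95% interval -0.23 to 1.32, adjusted p = 0.882), Gli1 (0.27, -0.90 to 1.44, adjusted p = 0.945) and Boc (-0.17, -0.36 to 0.03, adjusted p = 0.874). The 4 comparisons share samples: the scramble -PDGF-AA libraries, for example, stand in both the shRNA comparison and the ligand comparison of scramble cells.

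**Figure D3:**
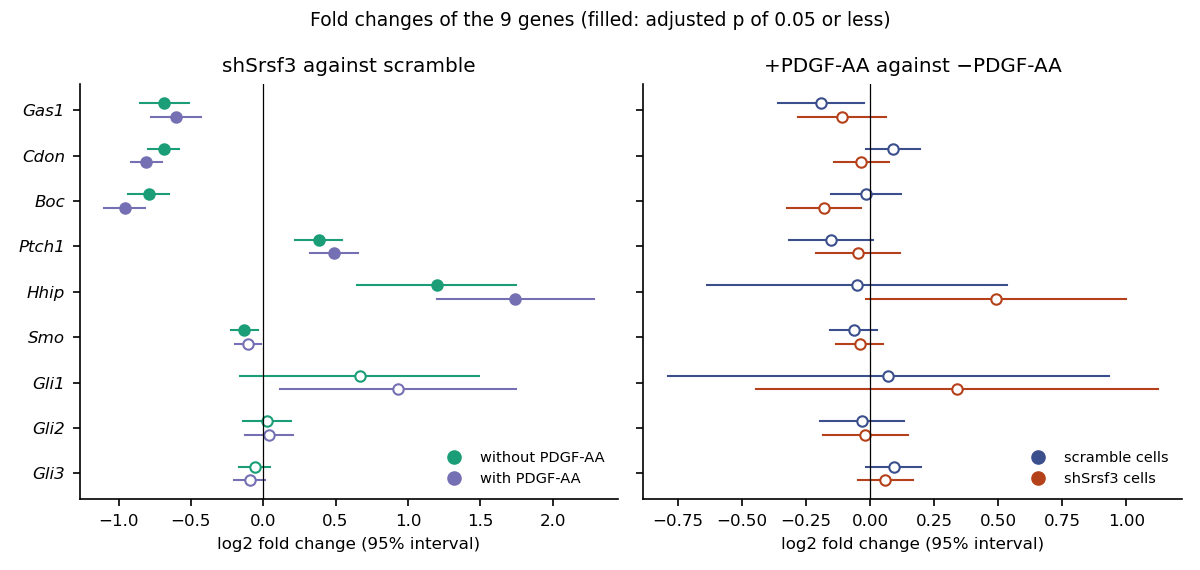
Log2 fold changes of the 9 genes with 95% intervals, on the left for shSrsf3 against scramble in each ligand state and on the right for +PDGF-AA against -PDGF-AA in each line; filled points have an adjusted p of 0.05 or less. Filled points are found only on the left: Gas1, Cdon and Boc below 0 and Ptch1 and Hhip above 0 in both states, and Smo just below 0 without ligand.

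The other genes of the pathway were read from 7 lists of 83 genes, of which 70 were tested. Of these, 36 changed without ligand (51.4%, 13 higher and 23 lower) and 35 with it (50%, 13 higher and 22 lower), beside 45.9% and 41.0% of all genes. The Hh ligands themselves were at or near 0: Shh had 0 counts in all 12 libraries, which allows up to 3 counts per library, and Ihh and Dhh had at most 4.

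Among the genes that attach lipids to Hh ligands or release them, 4 of 6 were tested. All 4 changed in both states, 1 higher and 3 lower, beside 45.9% and 41.0% of all genes without and with ligand. Scube3, a secreted protein that helps to release the ligand, went from 11.2 ± 0.916 to 3.94 ± 0.0681 CPM without PDGF-AA (log2 fold change -1.504, adjusted p = 5.323e-07) and from 10.9 ± 0.371 to 3.84 ± 1.09 CPM with it (log2 fold change -1.49, adjusted p = 1.061e-06), and was DE in both. Its relative Scube1 was lower, with log2 fold changes of -0.93 and -1.23, but at a low level. It went from 1.61 to 0.839 CPM without ligand and from 1.54 to 0.654 CPM with it. The ligand transporter gene Disp1 was also lower, with log2 fold changes of -0.47 and -0.39. Hhat, the acyltransferase that adds palmitate to the ligands, was higher (0.39 and 0.35).

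Of 10 tested cell-surface regulators, 4 changed without ligand (2 higher, 2 lower) and 5 with it (2 higher, 3 lower). These are 40% and 50%, beside 45.9% and 41.0% of all genes. The glypicans Gpc4 (log2 fold changes -0.47 and -0.50) and Gpc3 (-0.26 and -0.32), proteoglycans of the cell surface, were lower, while Gpc1 (0.14 and 0.17) and Mosmo, a negative regulator of Smo (0.26 and 0.17), were higher. Gpr161, a ciliary receptor that restrains the pathway, was lower with ligand (-0.22), and without it was at -0.15 with an adjusted p of 0.0890. All of these differences were smaller than those of Boc and Cdon.

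Of the 19 cytoplasmic regulators of Gli factors, 7 changed in each state, 3 higher and 4 lower, which is 36.8% and below the background shares. Spop, an adaptor for Gli degradation, was lower (log2 fold changes -0.37 and -0.24), and the kinase Grk2 (0.22 and 0.25) and the ciliary protein Iqce (0.18 and 0.26) were higher. Prkar1a, a regulatory subunit gene of protein kinase A, was lower in both states (-0.16 and -0.11). The kinase gene Gsk3b was lower without ligand (-0.17) and at -0.08 with it (adjusted p = 0.0930), and Prkacb was lower with ligand (-0.12) and at -0.06 without it (adjusted p = 0.146). Kif7, the ciliary kinesin of the pathway, was lower without ligand (-0.17, adjusted p = 0.0199) and at -0.11 with it (adjusted p = 0.129). Sufu, which binds and restrains Gli factors, was at 50.0 and 47.3 CPM in unstimulated scramble and shSrsf3 cells and at 46.9 and 44.5 CPM with ligand, with log2 fold changes of -0.08 and -0.07 (adjusted p = 0.109 and 0.136).

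Of the 21 genes of primary cilium transport, 11 changed without ligand (3 higher, 8 lower) and 9 with it (2 higher, 7 lower). These are 52.4% and 42.9%, beside 45.9% and 41.0% of all genes. Ift81 was higher (log2 fold changes 0.45 and 0.54), and Ift57 (-0.36 and -0.20), Ift88 (-0.27 and -0.34) and Ift140 (-0.25 and -0.22) were lower, all encoding parts of the trains that move cargo in the cilium. The small GTPase gene Rab34 was lower in both states (-0.13 and -0.20), and Ift80 was higher without ligand (0.25) and at 0.13 with it (adjusted p = 0.128). Of 3 tested Gli-related factors, Glis3 was lower in both states (-0.52 and -0.52) and Glis2 was higher with ligand (0.10) and at 0.06 without it (adjusted p = 0.251).

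Among genes that Hh signaling is known to regulate in mesenchyme, 13 were tested. Of these, 9 changed without ligand (4 higher, 5 lower) and 8 with it (4 higher, 4 lower), so the list did not move in 1 direction. These are 69.2% and 61.5%, beside 45.9% and 41.0% of all genes. The forkhead genes Foxd1 (15.1 to 26.7 CPM and 13.2 to 25.2 CPM, log2 fold changes 0.82 and 0.93) and Foxf2 (0.46 and 0.51) were higher, as was Tbx2 (0.69 and 0.95) at 0.6 to 1.2 CPM. Foxc2 (-0.44 and -0.35) and Mycn (-0.37 and -0.60) were lower. Osr2 was lower without ligand (-0.82, at 5.23 against 2.95 CPM) and at -0.43 with it (adjusted p = 0.106). In the response to PDGF-AA, 2 of the 70 listed genes (2.86%) changed in scramble cells, below the 4.04% of all genes. They were Disp1 (log2 fold change -0.18, adjusted p = 0.0119) and Mycn (0.57, adjusted p = 0.0104). In shSrsf3 cells 0 of the 70 changed, beside 0.565% of all genes. There 9 had an unadjusted p under 0.05, for which no share over all genes was computed. The interaction called 0 of the 70, beside 0.0133% of all genes, with 1 of the 70 at an unadjusted p under 0.05.

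**Figure D4:**
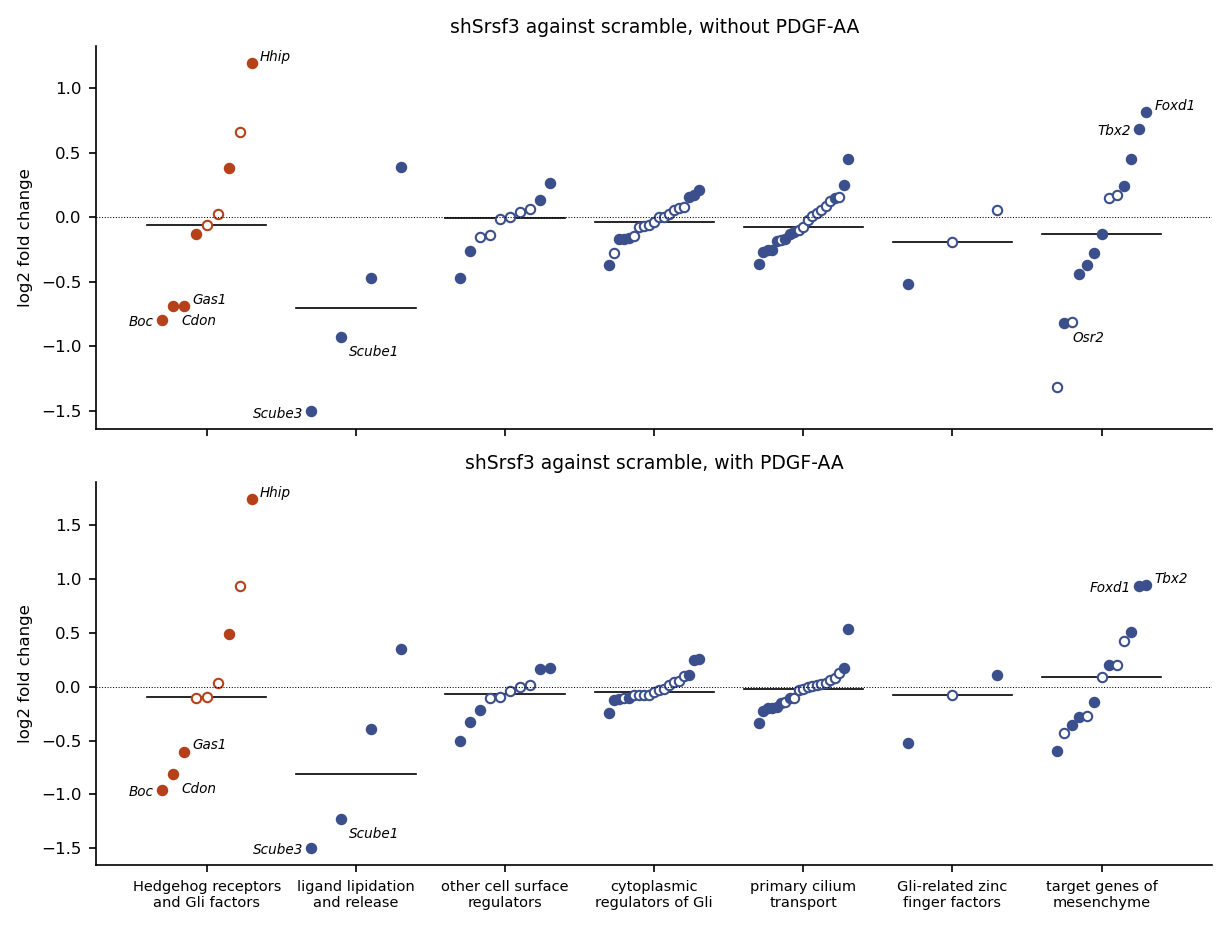
Log2 fold changes of shSrsf3 against scramble without (top) and with (bottom) PDGF-AA for the 9 genes (red) and for 6 lists of other pathway genes (blue), each dot a gene, filled where the adjusted p was 0.05 or less, with a bar at the list's median. Scube3 and Scube1 are the lowest filled points and Hhip is the highest, and the cytoplasmic and cilium lists stay within about 0.6 of 0.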

How the data were processed

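Per the study's methods, libraries were stranded poly(A) RNA-seq. Expected counts per transcript were estimated by the authors with Salmon (1.4.0, as in the submitters' processing notes) on GRCm39 GENCODE M26 and summarized per gene with tximport. Whether they were scaled for length is not given in the sources used here. The deposited expected counts are not normalized (30958870 to 76123207 per library, 16.3% of all values, zeros included, not exactly whole) and were rounded.

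edgeR (4.0.16) quasi-likelihood tests were fitted on all 12 samples with 1 mean per group, after filterByExpr (minimum count 10) and TMM scaling, with Benjamini-Hochberg adjustment over 15037 genes. A standard error is the absolute log2 fold change divided by the square root of F. DESeq2 (1.42.0) and limma-voom (3.58.1), other scalings, filters, equal depth and leaving out samples were alternatives. Gene positions, merged exon lengths, overlaps and shared 31-base sequences came from a later GENCODE release of the same build (GRCm39). Replicates are the study's biological replicates of 1 line per shRNA.

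The 9 genes, pathway lists and markers were chosen with earlier results of these data known. All 9 genes are named, and of each list up to 5 called genes with the largest fold change, plus Hh ligands, Sufu and Kif7, the 3 genes most like a DE gene over samples, and Srsf3, Egr1 and Fos. Cell type markers named singly were chosen after their values were seen. A further gene of this rule is not reported here. CPM are relative to all RNA counted, and protein, splicing and signaling activity were not analysed here.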

Additional observations from a re-analysis of the deposited data

How the results depend on the processing

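The 9 genes in 5 comparisons gave 974 values over 22 alternatives. Of these 926 kept their direction and side of the threshold, 5 lost a call, 8 gained one and 35 changed sign, of which 0 were called in either fit (log2 fold changes of at most 0.27 in size as reported). The calls of Gas1, Cdon, Boc, Ptch1 and Hhip in both shRNA comparisons held under each alternative, with adjusted p at most 0.023 for Ptch1 and 0.00803 for Hhip, and log2 fold changes of 0.30 to 0.53 and 1.05 to 1.91. With the 2-fold minimum, 1 gene remained in each shRNA comparison (Hhip). The call of Smo without ligand was lost without replicates 1 or 2 of scramble -PDGF-AA (log2 fold changes -0.09 and -0.12) or replicates 1 or 2 of shSrsf3 -PDGF-AA (-0.12 each), with adjusted p of 0.0661 to 0.106. With ligand, Smo was called with upper quartile scaling (adjusted p = 0.0357), without scramble -PDGF-AA replicates 1 or 3 (0.0486 and 0.0292), and without scramble +PDGF-AA replicate 3 (0.0351). Gli1 with ligand was called in the compared groups alone (adjusted p = 0.0468) and without shSrsf3 +PDGF-AA replicate 3 (0.046, log2 fold change 1.14), and a minimum count of 50 removed it. In the PDGF-AA response of scramble cells, no low-count filter gave 1 call, Gas1 (-0.19, adjusted p = 0.0149), and leaving out single samples gave 0 to 1 (Gas1 without shSrsf3 +PDGF-AA replicate 3, adjusted p = 0.0445). The causes were not tested. The deviations of same-numbered samples correlated at -0.142 to 0.201. In each comparison 2 or 3 of 6 samples correlated best with their own number. Only the PDGF-AA response of scramble cells had values above 0.1, for replicates 2 (0.201) and 3 (0.175), with replicate 1 at -0.142. The other comparisons reached at most 0.0816. With a replicate block the shRNA comparisons called 6 and 5 of the 9 genes and the others 0. Depth limits Gli1 (8 to 25 counts) and Hhip most.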
